A study of Mus musculus with 15 samples.

Results

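The arrays described here are wild-type arrays 4, 5 and 6, which are 3 of the 15 arrays of a series on Apc in mouse blood progenitors, and they give the baseline against which its mutants can be read. They were chosen by their titles. Wild-type arrays 1 to 3 were left out because their values look moved onto the mean of arrays 4 to 6: the per-gene means of both sets lay within 0.02 log2 units of each other for 69.6% of genes, against 8.20% to 11.4% for the 3 mutant genotypes. All animals were of the C57BL6 strain. The wild-type genotype was wt/wt, and the mutant genotypes used for comparison were 15lox/15lox, 15lox/1638N and 15lox/1572T, with 3 arrays each. In the labels 15lox is a floxed Apc allele, and 1638N and 1572T are hypomorphic alleles. Every group, wild type included, began as LSK cells sorted from bone marrow, was infected ex vivo with the retrovirus MSCV-Cre-IRES-GFP, and was sorted for GFP, so the controls carry Cre too. The growth medium was Stemspan with mFlt3L, mTpo and mSCF (Flt3 ligand, thrombopoietin and stem cell factor). RNA of over 10000 cells per sample was amplified before labelling. No label states that replicates are different animals, so errors and p-values measure the spread between these arrays only. The time in culture is not given in the sources used here.

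LSK cells lack surface markers of mature lineages and carry Sca1 and Kit, and they hold the blood stem cells together with multipotent progenitors. Stem cell factor signals through Kit and Flt3 ligand through Flt3, receptors that drive survival and division of these cells. In canonical Wnt signalling a secreted Wnt protein binds a Frizzled receptor and Lrp5 or Lrp6, which stops a complex of Axin, Apc, Gsk3 and casein kinase from marking beta-catenin for degradation. Beta-catenin then acts in the nucleus with Lef and Tcf factors.

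Genes of haematopoietic progenitors and of the cell cycle, 18 of 26 type I cytokine receptors and most intracellular Wnt components were above background on these arrays, while 17 of 19 Wnt ligands, 9 of 12 erythroid markers and the Hoxc and Hoxd clusters were near it. The values are log2 levels, with 1 probe set for each of 18194 genes, the one with the highest mean over arrays 4 to 6. Background was read from 157 reference probe sets of genes not known for roles in blood, such as olfactory and vomeronasal receptors, hair keratin-associated proteins, defensins and lens crystallins. A gene was called above background where it exceeded the 95th percentile of these probe sets on each of the 3 arrays (6.80, 6.70 and 6.97 on arrays 4, 5 and 6). It was called near background where it did so on none, and mixed otherwise. By this rule 10433 genes (57.3%) were above background, 7229 (39.7%) near it and 532 (2.92%) mixed, and 57.3% is the share against which each list below is read. The median level was 10.73 for genes above and 5.02 for genes near background. The call means only that the signal exceeds nearly all reference probe sets. Xist, an RNA made from the inactive X chromosome of female cells, read 7.69, 7.50 and 7.73 and so passed, although 3 Y-linked genes were above background on all 3 arrays (Eif2s3y 11.42, Kdm5d 8.68 and Uty 7.23 on average). On the 4 mutant arrays where Eif2s3y was between 3.67 and 4.12, Xist read 13.75 to 14.02. A gene above background at 7.73 or less therefore reads no higher than an RNA that male cells are not known to make. Of 387 list members above background, 36 were no longer so when the 99th percentile was used.

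**Figure D1:**
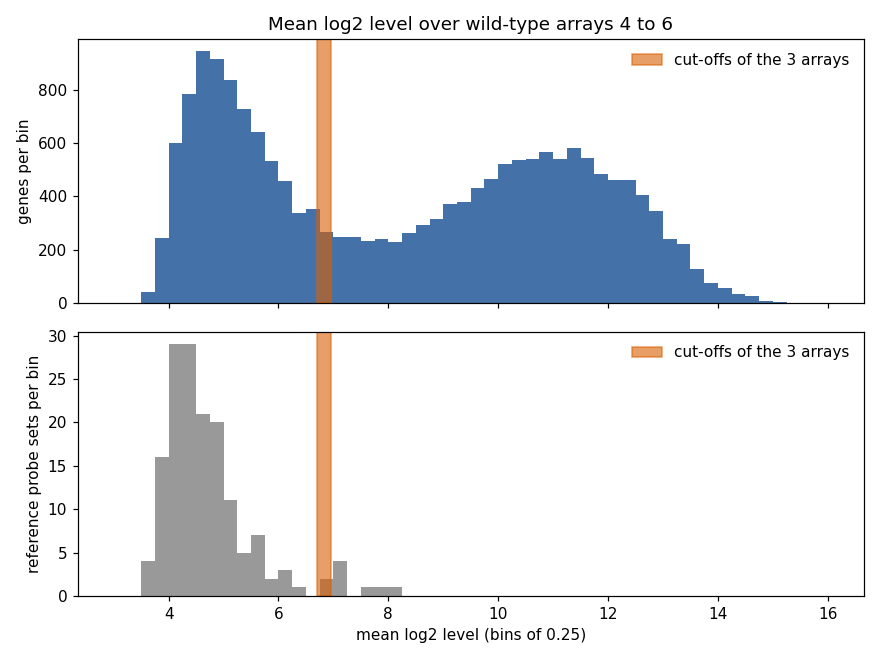
Number of genes (upper panel) and of reference probe sets (lower panel) per 0.25-unit bin of mean log2 level over wild-type arrays 4 to 6. The orange band spans the cut-offs of the 3 arrays (6.70 to 6.97); genes form a low group whose members near background have a median of 5.02 and a broad high group whose members above background have a median of 10.73.

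Probe sets differ in how well they bind their RNA, so the level of one gene was not ranked against that of another as an amount of RNA, and a percentile among all 18194 genes describes that probe set's signal only. Below, each ± is the SD over the 3 arrays, and array values are given in the order 4, 5, 6. The 48 lists hold 696 genes, of which 640 had a usable probe set and 387 were above background. Genes of a list without a probe set of their own symbol were not analysed here, among them Ly6a (Sca1). In RNA of a whole culture, fewer cells of a type and less RNA per cell cannot be told apart.

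Among the 20 genes of highest mean, with ribosomal protein genes set aside, were Tmsb10 (15.00 ± 0.07) and Tmsb4x (14.66 ± 0.10), which bind actin monomers, and Cfl1 (14.67 ± 0.11), which severs actin filaments. Lgals1, a galactose-binding lectin, read 14.93 ± 0.07. Eef1a1, the elongation factor that brings tRNA to the ribosome, read 14.85 ± 0.05, and Naca, which binds nascent chains, 14.70 ± 0.09. The glycolytic genes Gapdh (14.63 ± 0.02) and Aldoa (14.55 ± 0.04), and Tkt of the pentose phosphate pathway (14.61 ± 0.04), were also among the 20. Mitochondrial genes there were Vdac1 (14.67 ± 0.03), an outer membrane channel, and Cox5b (14.55 ± 0.06), a subunit of cytochrome oxidase. Stmn1, a destabiliser of microtubules that is abundant in dividing cells, read 14.49 ± 0.06. Fau, Pebp1, Sephs2, Mif, Fxyd5, Ran, Nop53 and Sod1 completed the 20, at 14.43 to 14.63. Of 51 measured ribosomal protein genes, 35 were among the 200 highest signals of all genes.

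The genes that define the sort and the culture were clearly present. Kit, the receptor for stem cell factor, read 11.32, 10.95 and 11.31 (percentile 77.0), with both of its probe sets above background. Flt3 read 12.58, 12.84 and 12.74 (percentile 93.5). All 3 arrays lay more than 4 log2 units above their cut-offs for Kit and more than 5 for Flt3. The antigens by which lineage-positive cells are recognised were mostly near background: the T cell genes Cd3e (5.11 ± 0.07), Cd4 (5.02 ± 0.09) and Cd8a (5.68 ± 0.06) and the myeloid integrin Itgam (5.20 ± 0.16) were near it on each array. Ly6g and Klrb1c were not analysed here. Ptprc (CD45), whose B220 isoform is the B cell antigen and which all white blood cells carry, read 12.24, 12.09 and 12.39.

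All 17 measured pan-haematopoietic surface genes were above background, with a median level of 12.82 against 8.45 over all genes. Cd47, the signal that protects cells from phagocytosis, read 13.76, 13.74 and 13.88. Cd52 read 13.64, 13.71 and 13.77, and Cd93 read 13.50, 13.41 and 13.56. Cd34, carried by multipotent and myeloid progenitors, read 13.34 ± 0.05. Genes of the Slam code, which separates stem cells from progenitors, divided: Cd48 (12.82 ± 0.17) and Cd244a (12.12 ± 0.12), which mark progenitors, were above background, while the stem cell marker Slamf1 (CD150) was mixed at 7.04, 6.66 and 6.89, with 0 of 3 probe sets above. Cxcr4, the homing receptor for Cxcl12, was above background at 12.91 ± 0.12, and the integrins Itga4 (13.03 ± 0.21), Itgb1 (10.72 ± 0.04) and Itgb2 (10.82 ± 0.07) likewise.

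Promoter sequence was examined as a feature that the choice of genes did not use. RefSeq promoters (GRCm38.p6) were found for 14369 of 18194 genes, and for 81.9% of those above background but only 74.9% of those near it, so that no share is given for the latter: a set with under 80% matched was taken as void. Over the 250 bases before the start site, 65.6% of promoters of genes above background were CpG-rich (GC content over 0.5 and observed over expected CpG over 0.6), against 49.3% over all 14369 measured genes with a promoter and 31.2% of all 27025 promoters in the table, which include genes not measured. The measured genes with a promoter were 79.0% of those measured, under the same limit of 80%, and hold the genes above background, so their shares describe only the matched genes. Motifs were searched on both strands. TATAAA was in 5.88% of promoters of genes above background, in 9.01% of those of measured genes and in 13% of all. CCGGAAG, which itself contains a CG, was in 15.3%, 10.6% and 7.07%. AGATAA was in 5.73%, 7.45% and 10.2%, TGTGGT in 10.7%, 11.6% and 14.2%, and CTTTGA in 10.4%, 12.3% and 14.1%. These are descriptions of letters in a window, not of binding. The promoters of 4 strongly read progenitor genes are shown for their range of CG content, printed 5′ to 3′ on the gene's strand with each CG in capitals. Kit (chr5:75574737-75574986, plus strand, 17 CG) and Flt3 (chr5:147400490-147400739, minus strand, 13 CG) encode receptors for factors in the growth medium. Mpo (chr11:87793534-87793783, plus strand, 2 CG), the myeloperoxidase of granulocyte progenitors, and Pf4 (chr5:90772185-90772434, plus strand, 1 CG), a platelet chemokine, have CG-poor promoters and yet read 14.18 ± 0.07 and 13.71 ± 0.13.
Kit: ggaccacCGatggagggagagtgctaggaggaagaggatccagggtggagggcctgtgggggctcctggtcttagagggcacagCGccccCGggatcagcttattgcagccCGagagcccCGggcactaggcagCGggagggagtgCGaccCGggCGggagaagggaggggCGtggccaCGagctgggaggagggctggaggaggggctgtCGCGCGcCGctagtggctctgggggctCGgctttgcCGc
Flt3: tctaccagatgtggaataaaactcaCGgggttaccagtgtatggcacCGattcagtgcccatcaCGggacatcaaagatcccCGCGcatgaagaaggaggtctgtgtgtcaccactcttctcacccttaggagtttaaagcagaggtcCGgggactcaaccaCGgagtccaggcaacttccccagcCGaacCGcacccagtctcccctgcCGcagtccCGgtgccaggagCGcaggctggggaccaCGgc
Mpo: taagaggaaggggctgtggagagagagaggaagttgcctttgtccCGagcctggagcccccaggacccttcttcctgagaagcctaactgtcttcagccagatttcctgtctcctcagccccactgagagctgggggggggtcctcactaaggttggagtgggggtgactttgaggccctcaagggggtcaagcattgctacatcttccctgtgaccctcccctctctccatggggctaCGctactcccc
Pf4: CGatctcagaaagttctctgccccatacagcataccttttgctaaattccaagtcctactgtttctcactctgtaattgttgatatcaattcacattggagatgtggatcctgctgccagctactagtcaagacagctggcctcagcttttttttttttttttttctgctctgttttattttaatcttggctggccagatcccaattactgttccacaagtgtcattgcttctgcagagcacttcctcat
The observed over expected ratio was 0.601 for Kit and 0.597 for Flt3, so both lay at the threshold of 0.6, one just over and the other just under it. At a threshold of 0.75 neither passed.

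Of 30 genes associated with long-term stem cells, 24 were above background, with a list median of 9.08. Gata2, a zinc finger factor needed by stem cells, read 13.49, 13.07 and 13.37. Txnip, an inhibitor of thioredoxin linked to quiescence, read 13.34, 13.06 and 13.05. Hoxa9 read 12.27, 12.25 and 12.39. All 3 genes lay far above the cut-offs with little spread. Angpt1, the ligand of the receptor Tek, read 12.28 ± 0.13, and Tek itself 7.97 ± 0.36. The factors Mecom (10.27 ± 0.19), Hlf (10.37 ± 0.27), Prdm16 (10.11 ± 0.04), Mllt3 (10.21 ± 0.08) and Meis1 (9.24 ± 0.26), which maintain stem cell identity, were above background as well. Of the surface markers used to isolate stem cells, Procr (EPCR) read 7.23 ± 0.21, Esam 7.62 ± 0.20, Thy1 8.44 ± 0.47 and Eng 10.57 ± 0.04. Cdkn1c (p57), an inhibitor of the cell cycle in quiescent stem cells, read 7.34 ± 0.14. Procr, Esam, Cdkn1c and Trpc6 (7.23 to 7.62) thus averaged no more than Xist (7.64). Fgd5 (6.62), Robo4 (5.63), Gda (6.00) and Sult1a1 (5.44) were near background, and Hoxb5 was mixed at 6.33, 6.40 and 7.01.

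Of 30 measured stem and progenitor transcription factors 28 were above background, with a list median of 11.71. Myb read 14.12, 13.80 and 14.13, Lmo2 read 13.71, 13.73 and 13.57, and Etv6 read 13.67, 13.49 and 13.79. Partners of the multiprotein complex around Tal1 were all above background: Tal1 (11.70 ± 0.11), Lyl1 (12.08 ± 0.07), Ldb1 (11.69 ± 0.17), Gata2, Runx1 (11.63 ± 0.27), Fli1 (10.99 ± 0.34) and Erg (9.98 ± 0.02). Factors that direct progenitors to opposed fates were above background on the same arrays, which does not place them in the same cells. These were Cebpa (13.63 ± 0.03) and Spi1 (10.53 ± 0.09) for myeloid fates, Gfi1b (11.08 ± 0.17) and Zfpm1 (9.41 ± 0.27) for erythroid and megakaryocytic fates, and Ikzf1 (12.54 ± 0.06), Bcl11a (12.13 ± 0.10) and Mef2c (12.91 ± 0.12) for lymphoid fates. Hmga2, high in fetal stem cells, read 11.67 ± 0.38, whereas its fetal regulator Lin28b (3.96 ± 0.09) and the fetal stem cell factor Sox17 (4.90 ± 0.08) were near background.

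Hox genes were above background in the Hoxa and Hoxb clusters and in neither of the others. In Hoxa, 5 of 9 measured genes passed, Hoxa9, Hoxa7 (9.89, 10.00 and 9.61), Hoxa10 (9.38, 8.89 and 9.37), Hoxa3 (9.20 ± 0.22) and Hoxa5 (8.72 ± 0.16), while Hoxa2 (5.99), Hoxa4 (5.98), Hoxa11 (4.49) and Hoxa13 (4.91) were near background. In Hoxb, 2 of 9 passed, Hoxb4 (8.03, 8.16 and 8.53) and Hoxb3 (8.14, 7.73 and 8.35), and 6 were near background. All 7 measured Hoxc genes (4.39 to 6.33) and all 8 Hoxd genes (3.89 to 6.08) were near it. With the 90th percentile as cut-off the counts were 5 in Hoxb, 2 in Hoxc and 1 in Hoxd, and with the lowest probe set of each gene 3 in Hoxa and 1 in Hoxb.

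Genes of all 3 progenitor programmes were read together in these arrays, 43 of 48 measured (89.6%). In the myeloid list 16 of 17 were above background, with a median of 12.73. The granule enzymes Mpo (14.19, 14.10 and 14.24) and Ctsg (14.17, 14.12 and 14.17) read at percentile 99.5, and the chaperone Calr read 14.18, 14.03 and 13.99. Elane, the neutrophil elastase, read 10.31 ± 0.39, Csf3r, the receptor for G-CSF, 9.77 ± 0.09, and Gfi1, a repressor that favours granulocytes, 8.22 ± 0.11. Klf4 was mixed (6.86, 7.25 and 6.67). In the megakaryocyte-erythroid list 15 of 16 passed, with a median of 10.87. Car2, a carbonic anhydrase, read 13.66, 13.36 and 13.64, and the transferrin receptor Tfrc 13.42, 13.50 and 13.19. The erythroid master factors Gata1 (10.07 ± 0.52) and Klf1 (8.03 ± 0.73) passed with a wide spread, Epor read 7.31 ± 0.33, and Car1 (6.24 ± 0.68) was near background.

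The lymphoid-primed list had 12 of 15 above background, with a median of 11.83, and 7 with the lowest probe set of each gene. Dntt, which adds bases to rearranging antigen receptor genes, read 12.86, 12.70 and 13.40, and Notch1, the receptor that directs T cell fate, 12.62, 12.66 and 12.92. Satb1 (11.89 ± 0.12), Ly6d (11.15 ± 0.74) and Ccr9 (10.17 ± 0.47) were above background. The recombinase genes were not: Rag1 was near background (5.71 ± 0.62), and Rag2 was mixed at 6.53, 6.70 and 7.24. Blnk, an adaptor of the pre-B cell receptor, was near it (6.32 ± 0.34).

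Markers of differentiated lineages were above background in 78 of 164 measured genes (47.6%, against 57.3% of all genes). In the neutrophil list 6 of 17 passed. Mpo, Ctsg, Prtn3 (13.33, 13.34 and 13.36) and Elane (10.31), whose proteins are stored in the first granules, were above background, as were Ms4a3 (12.21 ± 0.30), a membrane protein, and the chemokine receptor Cxcr2 (8.60). Near background were Ltf (5.71), Ngp (5.58), Camp (5.57), Mmp8 (5.44), Mmp9 (6.11), S100a8 (5.22) and S100a9 (5.03). Lcn2 was mixed at 6.82, 6.77 and 6.74. In the erythroid list 3 of 12 passed, Hemgn (11.54, 11.29 and 11.00), the water channel Aqp1 (9.35, 8.75 and 9.34) and Rhd (6.92, 6.71 and 7.47), the last barely. The globin Hba-a1 (4.69 ± 0.06), the haem synthesis gene Alas2 (4.42 ± 0.31) and the membrane genes Slc4a1 (5.82 ± 0.10), Epb42 (4.56 ± 0.11) and Rhag (3.87 ± 0.19) were near background.

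Megakaryocyte and platelet genes passed in 13 of 17. Pf4 read 13.82, 13.57 and 13.74, Rap1b, a GTPase that activates platelet integrins, 13.53, 13.22 and 13.53, and Itgb3 12.60, 12.35 and 12.78. The other integrin chain, Itga2b (CD41), read 11.16 ± 0.24, and subunits of the receptor for von Willebrand factor were present as Gp9 (10.13 ± 0.27), Gp5 (9.40 ± 0.49) and Gp1bb (7.70 ± 0.29). The genes Tubb1 (5.09 ± 0.18), the platelet tubulin, and Gp6 (4.21 ± 0.02), the collagen receptor, were near background. Mast cell and basophil genes passed in 9 of 16. Fcer1g, a shared chain of Fc receptors, read 13.49, 13.45 and 13.65, Mcpt8, a basophil protease, 13.30, 13.23 and 12.98, and Cpa3, the mast cell carboxypeptidase, 11.49 ± 0.33. Fcer1a was mixed (7.24, 6.54 and 8.36), and the proteases of mature mast cells Mcpt1, Mcpt4, Cma1, Tpsab1 and Tpsb2 were near background at 3.94 to 6.12. Of 7 eosinophil genes only Siglecf passed (10.71, 10.23 and 11.19), and the granule proteins Epx (5.43) and Prg2 (4.67) and the receptors Il5ra (5.63) and Ccr3 (3.97) were near background.

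In the monocyte and macrophage list 9 of 19 passed. Irf8 read 12.57, 13.03 and 12.59, Csf1r, the receptor for M-CSF, 11.62, 12.09 and 12.55, and Mpeg1, a pore-forming protein of phagocytes, 11.57, 12.13 and 11.89. Ccr2 read 11.59 ± 0.07. Cd68, a lysosomal protein of macrophages, read 11.12 ± 0.20. Lyz1 (11.31), F13a1 (10.87), Lyz2 (10.69) and Cx3cr1 (9.82) passed too. The macrophage genes Adgre1 (F4/80, 5.34), C1qa (4.86), C1qb (4.74), C1qc (4.86), Mrc1 (4.42) and Marco (5.36) were near background. The co-receptor for endotoxin Cd14 was near it too, at 6.58 ± 0.11, and Fcgr1 was mixed (6.50, 7.03 and 6.23). Dendritic cell and MHC class II genes passed in 11 of 16. H2-DMa, which loads peptide onto class II molecules, read 12.92, 12.92 and 13.02, and H2-Ab1 read 11.85 ± 0.10. Ciita, the coactivator of class II genes, was mixed at 7.36, 8.12 and 6.62, and the factors of conventional dendritic cells Zbtb46 (6.40) and Batf3 (6.17) were near background. Plasmacytoid dendritic cell genes passed in 10 of 13, among them Tcf4 (13.08, 13.04 and 13.27), Bst2 (12.81, 12.95 and 12.65) and Cox6a2 (11.62, 11.60 and 12.30). Siglech (7.13, 8.39 and 6.84) and Pacsin1 (6.44, 6.85 and 6.11) were mixed.

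B lineage genes passed in only 4 of 18. Ighm (11.73, 12.04 and 11.72) passed with 2 of 11 probe sets, Cd79b read 11.48, 11.48 and 11.57, Igha 10.11, 10.53 and 8.63, and the surrogate light chain Vpreb1 9.06 ± 0.17. The commitment factor Pax5 (5.10 ± 0.05), Cd79a (5.75 ± 0.06), Ms4a1 (CD20, 4.86 ± 0.09) and Cd22 (5.97 ± 0.33) were near background, and Ebf1 (6.36, 6.82 and 7.30) and Blk (6.31, 6.85 and 7.32) were mixed. The count depended on the rule and on 1 library: it was 10 with the 90th percentile, 7 where only the mean over the 3 arrays had to pass, and 7 without array 4. T lineage genes passed in 8 of 18. Cd28 read 11.05, 11.06 and 11.02, Lat, an adaptor of the T cell receptor, 10.88, 10.79 and 11.07, and Cd5 averaged 8.99 ± 0.26. Zap70 (8.61), Gata3 (8.12) and Cd247 (7.60) passed too, although Cd247 was near background with the mean of its probe sets. The CD3 chains Cd3d (5.43) and Cd3g (6.09), the receptor chain Il2ra (4.74) and the commitment factor Bcl11b (5.64) were near background, as Cd3e, Cd4 and Cd8a were. In the NK and innate lymphoid list 7 of 14 passed. Nkg7 read 14.00, 13.87 and 14.13, Gzmb 12.11, 11.95 and 11.02, and Klrd1 10.75 ± 0.26, while the NK factors Eomes (5.13) and Tbx21 (4.69) and the receptor Ncr1 (4.38) were near background and Il2rb was mixed (6.68, 7.32 and 6.73).

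Of 20 genes of stromal and endothelial cells, which could travel with marrow cells, 5 passed: Krt18 (11.41, 11.12 and 11.82), Pdgfrb (11.32, 11.33 and 11.31), Tie1 (9.73, 9.94 and 9.97), Pecam1 (9.36 ± 0.16) and Sparc (8.43 ± 0.08). Pecam1, Tie1 and Sparc are known in haematopoietic cells too. The collagens Col1a1 (5.55), Col1a2 (5.65) and Col3a1 (4.55), the stromal Cxcl12 (5.49), Lepr (4.67) and Pdgfra (5.20), and the endothelial Cdh5 (4.75), Kdr (5.55) and Emcn (6.33) were near background. The mean level over the whole list ran from 6.44 to 6.48 on the wild-type arrays.

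**Figure D2:**
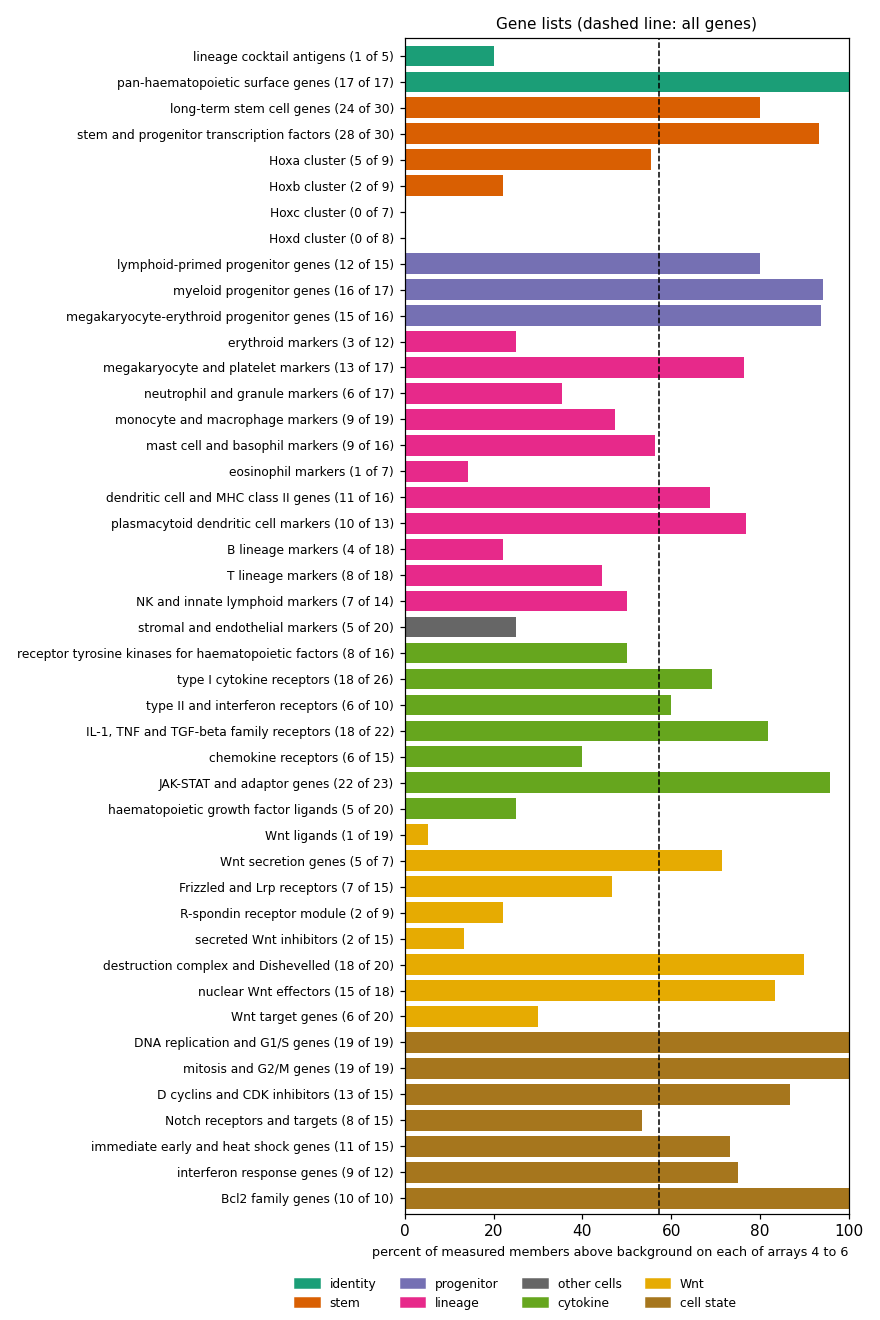
Share of the measured members of each gene list above background on each of wild-type arrays 4 to 6, in percent, with the counts beside the list names and colours for the kind of list. The dashed line marks the 57.3% of all genes above background; all 19 DNA replication and all 19 mitosis genes passed, and 1 of 19 Wnt ligands.

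The share of receptor genes above background differed between families, at 40% of chemokine receptors, 50% of receptor tyrosine kinases, 60% of type II and interferon receptors, 69.2% of type I cytokine receptors and 81.8% of IL-1, TNF and TGF-beta family receptors, against 57.3% of all genes. Of 16 receptor tyrosine kinases 8 passed (5 with the lowest probe set of each gene): besides Flt3, Csf1r and Kit, these were Igf1r (11.88, 11.22 and 11.88), the insulin receptor Insr (10.96 ± 0.34), Pdgfrb, the hepatocyte growth factor receptor Met (9.29 ± 0.30) and Tek. The vascular growth factor receptors Flt1 (5.91 ± 0.15) and Kdr (5.55 ± 0.05) were near background and Flt4 was mixed (7.00, 6.62 and 7.17). The receptors of the Tam family, which sense dying cells, were also near background: Tyro3 (6.57), Axl (5.58) and Mertk (4.48).

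Type I cytokine receptors passed in 18 of 26 (11 with the lowest probe set). Csf2rb, the chain shared by the receptors for IL-3, IL-5 and GM-CSF, read 12.82, 12.52 and 12.66. Its partners for IL-3 (Il3ra, 10.55 ± 0.09) and GM-CSF (Csf2ra, 10.32 ± 0.19) were above background, and the partner for IL-5 (Il5ra, 5.63 ± 0.15) was near it. Crlf2, the receptor for TSLP, read 11.52, 11.44 and 11.83. Il6st (gp130), shared by the IL-6 family, read 10.58, 10.77 and 11.44, with Il6ra (10.02 ± 0.18) and Lifr (9.24 ± 0.20) beside it, while Osmr (4.62 ± 0.04), Lepr and Cntfr (6.05 ± 0.10) were near background. Il4ra read 10.82 ± 0.09, whereas Il13ra1 (5.55 ± 0.07) was near background. In the IL-2 family Il21r (10.43 ± 0.07) and Il15ra (8.32 ± 0.31) passed, Il2rb was mixed and Il2ra and Il9r (4.03 ± 0.06) were near background. Il7r, on which lymphoid progenitors depend, read 7.49, 7.84 and 9.37, a range of nearly 2 log2 units.

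**Figure D3:**
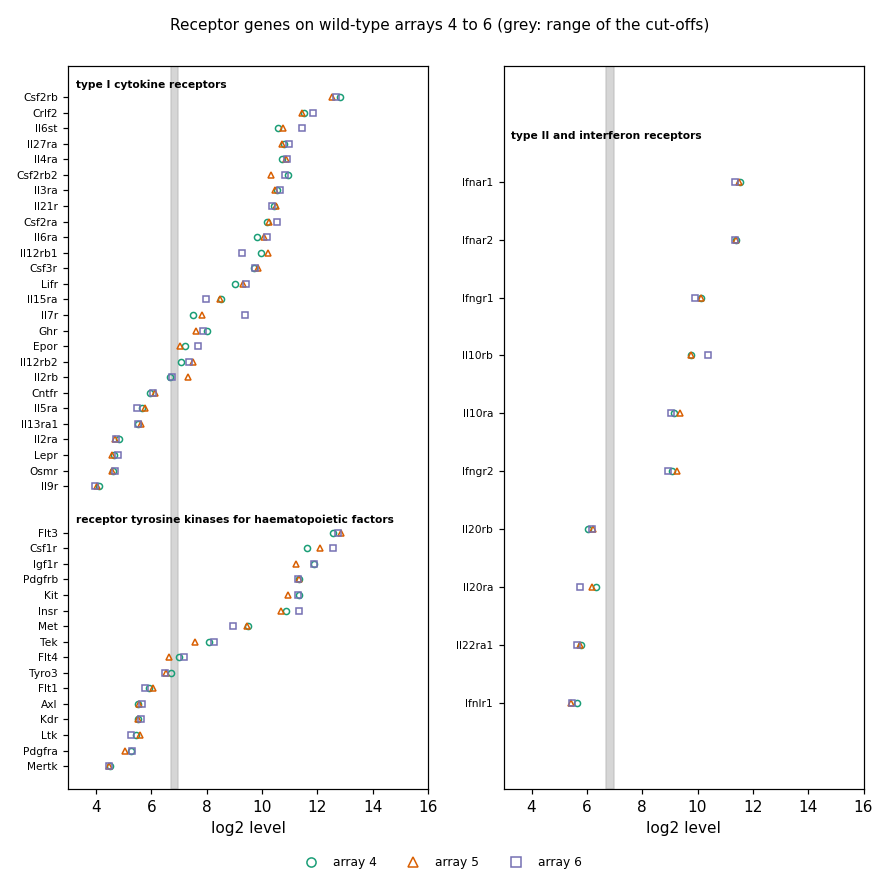
Log2 level of each type I cytokine receptor, receptor tyrosine kinase and type II or interferon receptor on wild-type arrays 4 (circle), 5 (triangle) and 6 (square), with the range of the cut-offs in grey. Of these, 18 of 26, 8 of 16 and 6 of 10 genes lay above the cut-off on every array; the 3 symbols nearly coincide for most genes and part for Il7r.

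Both chains of the type I interferon receptor, Ifnar1 (11.54, 11.50 and 11.37) and Ifnar2 (11.38, 11.39 and 11.37), and of the interferon gamma receptor, Ifngr1 (10.12, 10.11 and 9.90) and Ifngr2 (9.10 ± 0.17), were above background, as were both IL-10 receptor chains (Il10ra 9.19 ± 0.16, Il10rb 9.97 ± 0.34). Receptors of epithelial cytokines of the same family, Il20ra (6.09), Il20rb (6.13), Il22ra1 (5.72) and Ifnlr1 (5.52), were near background. In the IL-1, TNF and TGF-beta families 18 of 22 passed (8 with the lowest probe set). Cd27 read 12.25, 12.43 and 12.17, Il18rap 11.71, 11.81 and 12.13, and Tnfrsf1a 11.56, 11.67 and 11.69. The receptors for TGF-beta, which restrains stem cell division, were present as Tgfbr1 (11.10 ± 0.12) and Tgfbr2 (11.44 ± 0.20), while the BMP receptor chain Bmpr1a (6.51, 6.85 and 6.85) and Acvr1 (7.21, 7.34 and 6.86) were mixed. Chemokine receptors passed in 6 of 15: Cxcr4 (13.04, 12.82 and 12.86), Ccr2 (11.59, 11.66 and 11.52), Ccr9 (10.23, 10.61 and 9.68), Cx3cr1 (9.82 ± 0.42), Cxcr2 (8.60 ± 0.24) and Ccr7 (8.51 ± 0.28). Ccr6 was mixed (6.92, 7.51 and 6.82).

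Behind the receptors, 22 of 23 JAK-STAT and adaptor genes passed, with a median of 11.05. Grb2, the adaptor to Ras, read 13.71, 13.61 and 13.68, Stat5a 13.06, 12.79 and 13.03, and the phosphatase Ptpn11 12.70, 12.78 and 12.82. Jak2, a kinase used by several cytokine receptors, read 12.44 ± 0.14 and Sh2b3 (Lnk), which restrains it, 11.05 ± 0.11. Targets of Stat5 that feed back on it were present as Cish (8.40 ± 0.24) and Socs2 (9.94 ± 0.21), and Socs1 (6.04 ± 0.13) was the only member near background. The ligands were mostly not read: 5 of 20 passed, Angpt1, Tgfb1 (11.75, 11.91 and 11.64), Il15 (10.41, 10.17 and 9.76), Osm (8.36 ± 0.09) and Il1b (7.94 ± 0.56), and 9 with the 90th percentile. Kitl (4.67 ± 0.09), which encodes the stem cell factor that the medium supplied, and Csf1 (6.63), Csf2 (5.61), Csf3 (5.39), Il3 (4.27), Il6 (5.92) and Il7 (5.48) were near background. Tnf was mixed at 7.44, 7.77 and 6.89.

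The Wnt pathway divided by role: 53 of 114 genes passed (46.5%), most of them inside the cell. Of 19 Wnt ligands only Wnt9a passed, at 9.42, 9.90 and 9.04 and with 1 of its 2 probe sets. Wnt10b was mixed (6.65, 6.90 and 6.60), and the other 17 were near background, among them the canonical ligands Wnt1 (4.82 ± 0.22), Wnt3 (4.12 ± 0.09) and Wnt3a (6.51 ± 0.32) and the non-canonical Wnt4 (5.97 ± 0.14) and Wnt5a (4.50 ± 0.09). The count was 8 with the 90th percentile and 0 with the lowest probe set of each gene. Among genes that export Wnt proteins, the carrier Wls (10.47 ± 0.11) and the retromer subunits Vps26a (12.95, 12.87 and 12.90) and Vps35 (11.77, 11.62 and 11.58) passed, and Porcn, the enzyme that attaches their lipid, was near background (5.48 ± 0.19).

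Of 15 Frizzled, Lrp and related receptors 7 passed. The co-receptor Lrp6 read 12.05, 11.82 and 12.06, and Lrp5 9.63 ± 0.01. Frizzled genes above background were Fzd7 (10.73, 10.44 and 10.47), Fzd6 (10.08, 10.00 and 9.91), Fzd5 (7.87 ± 0.19) and Fzd4 (7.72 ± 0.30), and Ryk read 7.62 ± 0.39. Fzd9 was mixed (6.32, 6.90 and 6.25), and Fzd1, Fzd2, Fzd3, Fzd8, Fzd10, Ror1 and Ror2 were near background at 4.58 to 6.61. This count moved with the rule, from 2 with the lowest probe set and 4 with the mean of the probe sets or the 99th percentile to 12 with the 90th percentile. In the R-spondin module, which controls how many Frizzled receptors reach the surface, the ligase Znrf3 (8.96, 8.79 and 8.62) and the receptor Lgr4 (7.92, 7.83 and 7.47) passed, each with 1 of 2 probe sets, and Rnf43 (6.65), Lgr5 (4.67), Lgr6 (5.16) and all 4 R-spondins (4.81 to 5.61) were near background. Of 15 genes listed as secreted Wnt inhibitors or their relatives 2 passed, Dkkl1 (10.68, 10.76 and 10.64) and Apcdd1 (9.04, 9.44 and 9.67). The listing does not show that these 2 act as secreted inhibitors. Dkk1 (4.23 ± 0.12), Wif1 (4.61 ± 0.11) and 5 Sfrp genes including Frzb (4.60 to 5.98) were near background.

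The destruction complex and the Dishevelled proteins that inhibit it passed in 18 of 20, with a median of 10.40. Beta-catenin, Ctnnb1, read 13.80, 13.66 and 13.77. Fbxw11, a ubiquitin ligase subunit that recognises it, read 13.67, 13.43 and 13.80, and Csnk1a1, the kinase that primes it, 13.43, 13.23 and 13.33. Gsk3b (13.08 ± 0.12) and the scaffolds Axin1 (10.71 ± 0.11) and Apc (9.75 ± 0.16) passed, as did all 3 Dishevelled genes (Dvl1 13.28, Dvl2 10.39 and Dvl3 7.51). With the lowest probe set of each gene 10 of the 20 passed. Nuclear effectors passed in 15 of 18: Ctbp1 (13.54, 13.50 and 13.52), Tle3 (12.94, 12.95 and 12.97) and Tle4 (11.71 ± 0.16), which repress, Pygo2 (12.75, 12.77 and 12.83), Bcl9 (11.06 ± 0.18) and Bcl9l (10.10 ± 0.17), which join beta-catenin to the transcription machinery, and Tcf7l2 (10.13 ± 0.49). Lef1 was mixed at 6.85, 5.96 and 6.91, Tcf7l1 was near background (5.88 ± 0.10), and Tcf7 was not analysed here.

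Genes known as Wnt targets in other tissues passed in 6 of 20 (13 with the 90th percentile, 2 with the lowest probe set). Ccnd1 (13.24, 13.47 and 13.06), Cd44 (12.59, 12.23 and 12.65) and Myc (11.51, 11.60 and 10.59) are under many other controls. Of the direct feedback targets Axin2 read 7.26, 7.38 and 7.57, which is under Xist on each array, Apcdd1 and Znrf3 passed as above, and Nkd1 (6.47 ± 0.07), Sp5 (6.02 ± 0.03), Notum (5.43 ± 0.06) and Dkk1 were near background. Intestinal and developmental targets, Ascl2 (6.85, 6.59 and 6.74, mixed), Ephb3 (5.39), Sox9 (5.35), Bmp4 (4.83) and Tnfrsf19 (4.79), did not pass.

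**Figure D4:**
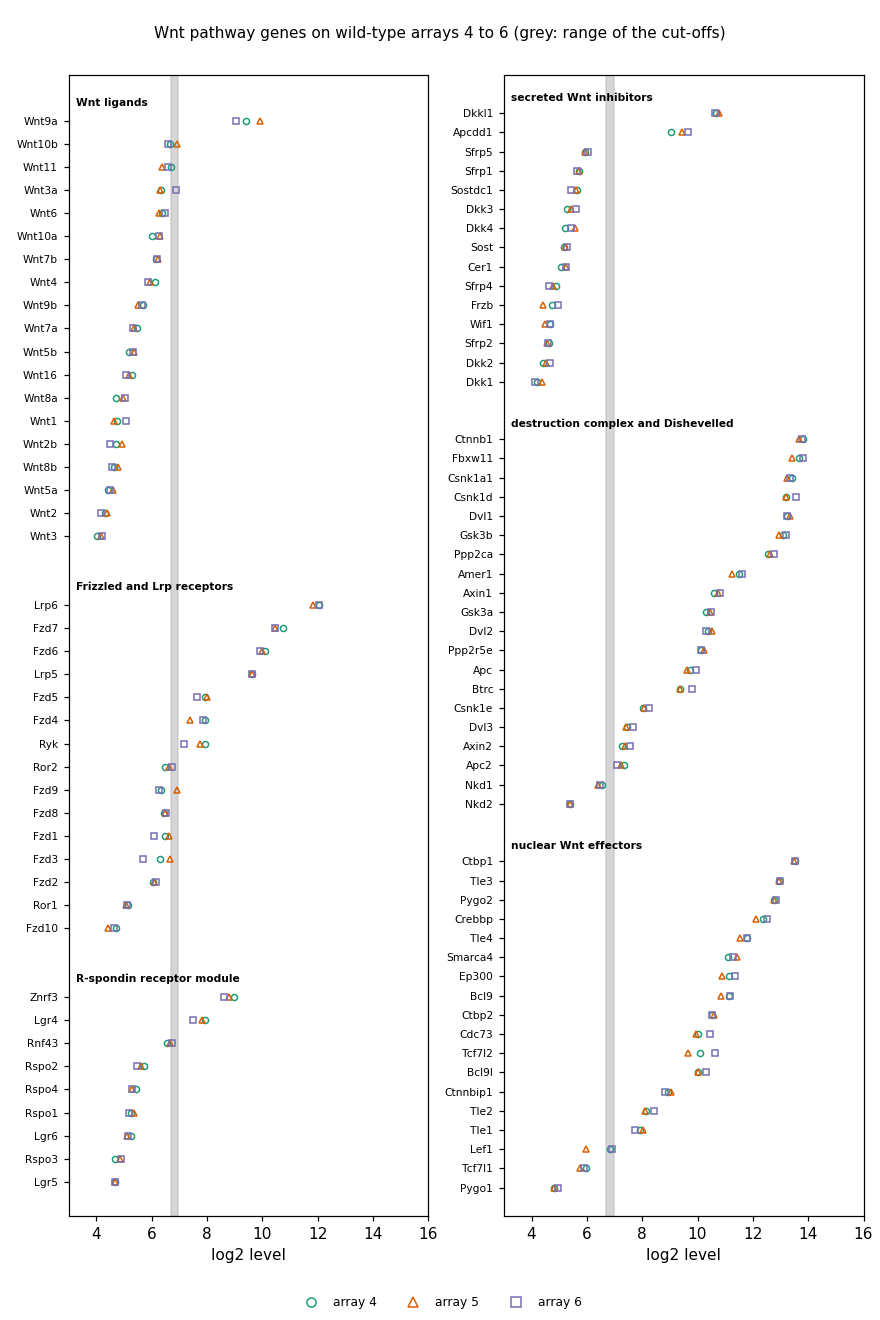
Log2 level of each Wnt pathway gene, by role, on wild-type arrays 4 (circle), 5 (triangle) and 6 (square), with the range of the cut-offs in grey. Ligands and genes listed as secreted inhibitors lie left of the grey band except Wnt9a, Dkkl1 and Apcdd1, with single arrays of Wnt10b, Wnt11 and Wnt3a inside it. In contrast, 18 of 20 destruction complex and Dishevelled genes and 15 of 18 nuclear effectors lie to its right.

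The cultures carried the transcripts of dividing cells. All 19 DNA replication genes passed (median 12.35), among them Pcna (13.78, 13.93 and 13.75), Mcm7 (13.66, 13.92 and 13.52) and Rrm2 (13.45, 13.42 and 13.21), a subunit of ribonucleotide reductase. All 19 mitosis genes passed too (median 12.30), with Birc5 at 13.55, 13.61 and 13.40, Top2a at 13.23, 13.30 and 13.19 and Mki67 at 12.98, 13.21 and 13.27. D cyclins and CDK inhibitors passed in 13 of 15. Ccnd2 read 13.60, 13.55 and 13.57, Cdk6 13.38, 13.34 and 13.56 and Cdk4 13.40, 13.54 and 13.32. The inhibitors Cdkn1a (p21, 12.80 ± 0.23) and Cdkn1b (p27, 12.58 ± 0.13) were above background, and Cdkn2a (4.89 ± 0.12) and Cdkn2b (5.20 ± 0.01), which rise in senescent cells, were near it.

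Other states of the cells were read from 4 lists. All 10 measured Bcl2 family genes passed (6 with the lowest probe set), both the survival genes Mcl1 (12.96 ± 0.04) and Bcl2 (12.89, 12.98 and 12.78) and their antagonists, such as Bid (11.89, 11.89 and 11.79). Notch genes passed in 8 of 15 (13 with the 90th percentile and 5 with the lowest probe set). The receptors Notch2 (13.16, 13.01 and 13.13) and Notch1 and the nuclear partner Rbpj (11.67, 11.52 and 11.85) passed. Of the targets, Nrarp (10.93) and Dtx1 (7.87) passed and Hes1 (6.41 ± 0.25), Hey1 (5.80) and Hey2 (4.10) were near background. Of the ligands, Jag2 (11.63) passed, Dll1 (5.91) and Dll4 (5.31) were near background and Jag1 was mixed (6.99, 6.82 and 6.76). Immediate early and heat shock genes, which rise when cells are handled, passed in 11 of 15 (7 with the lowest probe set): Hspa8 at 14.27, 14.28 and 14.24, Hsp90aa1 at 13.55, 13.56 and 13.41 and Jund at 13.38, 13.31 and 13.47. The immediate early genes Dusp1 (11.12), Egr1 (9.52), Jun (9.37), Ier2 (8.98), Fos (8.55) and Junb (7.15) and the heat shock genes Dnajb1 (12.50) and Hspa1b (7.92) passed as well, and Fosb (4.44), Atf3 (5.97), Hspa1a (4.69) and Hspb1 (5.33) were near background. Interferon response genes passed in 9 of 12. Bst2 aside, Oas1a read 10.40, 10.45 and 10.85 and Rsad2 10.35, 9.44 and 10.99, Cxcl10 was mixed (6.89, 6.97 and 6.66), and Ifit1 (6.05 ± 0.69) and Ifit3 (6.50 ± 0.19) were near background.

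The 3 wild-type arrays resembled one another closely. The median SD of genes above background was 0.132, against 0.178, 0.133 and 0.163 in 15lox/15lox, 15lox/1638N and 15lox/1572T, and 134 of these genes (1.28%) had an SD over 0.5 in wild type. These genes were chosen on the wild-type arrays themselves, and each mutant group mixed arrays with and without Y-linked transcripts, so the groups are not compared evenly. Arrays 4 and 5 differed by more than 2-fold in 19 genes, arrays 4 and 6 in 27, and arrays 5 and 6 in 102. The 15 genes of largest SD fell into a few patterns. Class II and B cell or plasmacytoid genes read highest on array 5 and lowest on array 6: Cd74, the invariant chain (11.92, 12.89 and 10.69), H2-Aa (10.29, 11.39 and 9.32), H2-Eb1 (10.41, 11.37 and 9.56), Spib (10.11, 11.26 and 9.50) and Igha. Dlk1 (9.49, 10.16 and 7.99) and Tgfb3 (9.56, 10.07 and 8.04) had the same order. Others read lowest on array 5: the stress genes Nupr1 (10.19, 8.29 and 10.33) and Trib3 (9.91, 8.25 and 10.22), the peptide transporter Slc15a2 (11.64, 9.91 and 11.70), the mast cell receptor chain Ms4a2 (10.03, 8.86 and 10.91), the chemokine Ccl5 (8.24, 7.43 and 9.78), Gna14 (7.55, 6.78 and 8.68) and Ces2g (8.18, 6.99 and 8.72). Il7r alone of the 15 read highest on array 6 without being lowest on array 5.

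Whole lists followed these differences in part. Array 5 was highest in 18 of 19 DNA replication genes, 14 of 19 mitosis genes and 8 of 11 dendritic cell and class II genes, against 4071 of all 10433 genes above background. It was highest in 0 of 13 megakaryocyte genes, of which 8 read highest on array 6, and in 0 of 9 mast cell and basophil genes, of which 6 did. The differences were small: the replication genes on array 5 had a median deviation of 0.15 from the gene's mean, and the megakaryocyte genes of -0.23. These orders were not tested.

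**Figure D5:**
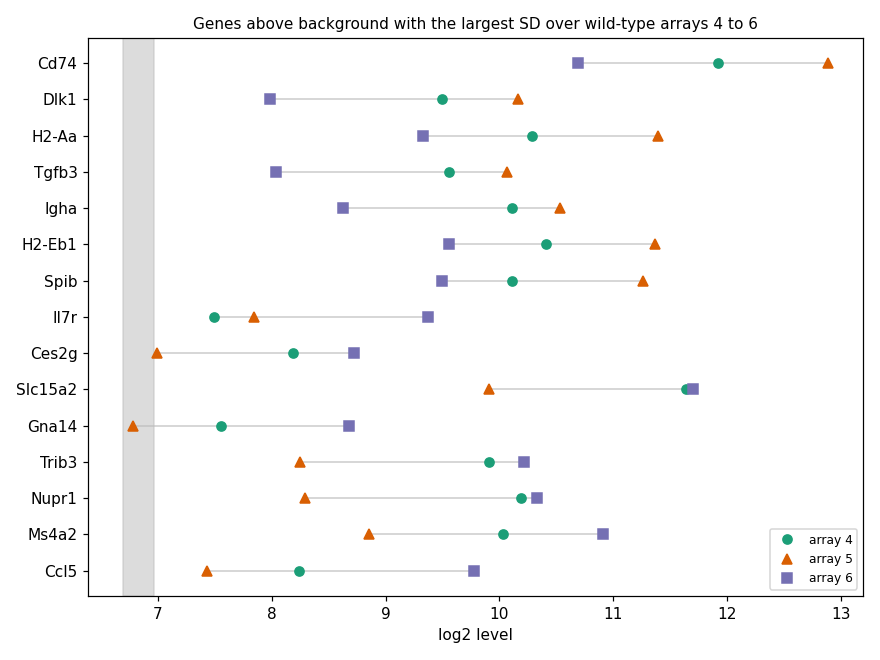
Log2 levels of the 15 genes above background with the largest SD over wild-type arrays 4 (circle), 5 (triangle) and 6 (square), ordered by the difference between arrays 5 and 6, with the range of the cut-offs in grey. Class II genes such as Cd74 are highest on array 5 (12.89) and lowest on array 6 (10.69), and Nupr1 and Trib3 are lowest on array 5.

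Against the 3 mutant genotypes most of this baseline did not pass the test. With limma and Benjamini-Hochberg adjustment over all 18194 genes, 455 genes (2.50%) were called in 15lox/15lox, 637 (3.50%) in 15lox/1638N and 21 (0.115%) in 15lox/1572T, each against the same wild-type arrays, so the 3 comparisons are not independent of each other. Of the 640 list genes 50, 53 and 5 were called. The counts moved when 1 array was left out. Leaving out an array also makes a group smaller, so fewer calls do not show that they rested on that array. The count of 15lox/15lox was 282 without wild-type array 4 or 5 and 330 without wild-type array 6. That of 15lox/1638N was 231, 248 and 240 without wild-type arrays 4, 5 and 6, and 259, 217 and 961 without its own arrays 1, 2 and 3. That of 15lox/1572T was 9 and 5 without wild-type arrays 4 and 5, 8 and 11 without its own arrays 1 and 2, 12 without 15lox/15lox array 1, and 12 and 13 without 15lox/1638N arrays 1 and 3. The wild-type arrays all carried Y-linked transcripts, and 2 of the 15lox/15lox arrays and 1 array of each other genotype did not. The part of sex in these calls was not tested. The mean level of the 20 stromal and endothelial markers was lower on every mutant array, at 6.30 to 6.39 in 15lox/15lox, 6.20 to 6.39 in 15lox/1638N and 6.27 to 6.29 in 15lox/1572T, against 6.44 to 6.48 in wild type. The median difference of these 20 genes was -0.026 in 15lox/15lox, 0.007 in 15lox/1638N and -0.072 in 15lox/1572T. Over all genes it was -0.047, -0.037 and -0.027, so the typical marker fell below the median of all genes only in 15lox/1572T. The part of stromal and endothelial cells in these calls was not tested.

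Gate genes, stem and progenitor transcription factors, Hox genes and cell cycle genes had 0 calls by limma in each comparison. At an unadjusted p under 0.05, 3, 9 and 1 of the 32 gate and transcription factor genes passed in 15lox/15lox, 15lox/1638N and 15lox/1572T, where all genes gave 12.1%, 19.8% and 7.94%. For the 33 Hox genes these counts were 3, 4 and 1, and for the 53 cell cycle genes 2, 9 and 3. A call missed at 3 arrays per group does not show that levels were equal. Kit, for example, was 0.22 ± 0.18 (SE) higher in 15lox/15lox, with an adjusted p of 0.706 in limma.

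Calls were found among Wnt target genes, where 10 of 20 rose in 15lox/15lox and 7 in 15lox/1638N and 0 were called in 15lox/1572T (1 at an unadjusted p under 0.05). Over all genes 1.74%, 1.06% and 0.0275% rose. Of the Wnt target genes called, 7 of the 10 and 4 of the 7 were near background or mixed in wild type. Axin2, at 7.26, 7.38 and 7.57 in wild type, read 12.28, 12.29 and 11.94 in 15lox/15lox, a difference of 4.77 ± 0.31 (SE, adjusted p = 9.81e-06). Lef1, mixed in wild type, read 11.22, 10.79 and 9.53 there (3.94 ± 0.41, adjusted p = 0.000227). Bmp4, near background in wild type, read 8.87, 9.75 and 9.29 there (4.47 ± 0.43, adjusted p = 0.000128). The groups did not overlap for any of these 3 genes, which were picked from those called. The share of all genes without overlap was not counted, so this adds nothing to the calls. With the mean of a gene's probe sets the differences of Axin2 and Lef1 were 2.94 and 2.16. From a level near background, as for Bmp4 in wild type, a difference may understate the change, which was not tested.

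Of the 7229 genes near background in wild type, 118 rose in 15lox/15lox (1.74% of all genes rose there), 52 in 15lox/1638N (1.06%) and 2 in 15lox/1572T (0.0275%). In both directions 1.95%, 1.16% and 0.0692% of these 7229 genes were called, under the 2.50%, 3.50% and 0.115% of all genes. Classes and probe sets were chosen on the same wild-type values that enter the contrasts, so the counts by class are not independent of that choice. Sult1a1, a sulfotransferase of phenols, read 5.81, 5.69 and 4.83 in wild type, 12.10, 12.51 and 13.02 in 15lox/15lox (7.10 ± 0.40, adjusted p = 3.74e-06) and 11.55, 10.46 and 11.68 in 15lox/1638N (5.79 ± 0.40, adjusted p = 3.25e-05). Edar, a receptor of the TNF family known from hair follicles, read 4.85, 4.40 and 4.58 in wild type and 11.28, 10.86 and 11.22 in 15lox/15lox. Ahsg (fetuin A, a plasma protein of the liver), Rasgrp1, which activates Ras in T cells, Phlda1 and Cd83 were the next in 15lox/15lox, with differences of 6.18, 5.98, 5.20 and 4.98. In 15lox/1638N they were Rasgrp1 (4.67), Edar (4.46), the inhibitory receptor Pdcd1 (4.12), Rhoj (3.84) and Cd160 (3.62). Cd14 and Pdcd1 were the 2 in 15lox/1572T: Cd14 read 9.19, 8.88 and 9.25 there (2.53 ± 0.18, adjusted p = 0.000272), and Pdcd1 8.22, 9.75 and 9.70 (adjusted p = 0.0373, highest under the alternatives 0.182). With the mean of a gene's probe sets the differences of Edar were 3.20 and 2.20 and those of Rasgrp1 3.07 and 2.10 in 15lox/15lox and 15lox/1638N.

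Of the 10433 genes above background in wild type, 100 fell in 15lox/15lox (0.758% of all genes fell there), 382 in 15lox/1638N (2.44%) and 8 in 15lox/1572T (0.0879%). In both directions 2.63%, 4.82% and 0.105% of these 10433 genes were called, against 2.50%, 3.50% and 0.115% of all genes. This class too was chosen on the wild-type values that enter the contrasts. The largest differences in 15lox/15lox, with Apc aside, were in lymphoid genes: Igha (-3.30), Cd7 (-3.10), Ccr9 (-2.68) and Ly6d (-2.45), along with Cracdl (-2.56). In 15lox/1638N they were Igha (-4.22), Cd7 (-3.87), Cd74 (-3.58), H2-Aa (-3.25), Ccr9 (-2.92) and Ly6d (-2.87). Ccr9 read 10.23, 10.61 and 9.68 in wild type, 7.74, 7.09 and 7.67 in 15lox/15lox (adjusted p = 0.00166) and 7.37, 6.96 and 7.43 in 15lox/1638N (adjusted p = 0.0018). Igha, Cd74, H2-Aa and Ly6d were themselves among the genes that varied between wild-type arrays by 0.74 (Ly6d) to 1.10 (Cd74) SD. Their calls in 15lox/1638N did not hold under every alternative (highest adjusted p 0.0579 for Igha, 0.0781 for Cd74, 0.162 for H2-Aa and 0.0847 for Ly6d), and neither did those of Igha, Cd7 and Ly6d in 15lox/15lox (0.183, 0.0876 and 0.203). In 15lox/1572T the genes that fell furthest were Cracdl (-2.04), Adam22 (-1.40), Tox (-1.37), Pglyrp2 (-1.06), Apc (-0.93) and Cand2 (-0.75). None of these 6 calls held under every alternative (highest adjusted p in limma 0.0814 for Tox to 0.304 for Apc). With the mean of a gene's probe sets the differences of Ccr9 were -1.47 and -1.54, that of H2-Aa in 15lox/1638N was -1.96 and those of Adam22 and Tox were -0.81 and -0.86.

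Apc itself read 9.72, 9.61 and 9.93 in wild type and 5.58, 6.10 and 5.69 in 15lox/15lox (-3.96 ± 0.14 SE, limma adjusted p = 1.64e-07), 8.47, 8.67 and 8.52 in 15lox/1638N and 8.96, 8.86 and 8.64 in 15lox/1572T. The sign depended on the probe set: with that of highest mean over all 15 arrays the differences were 0.77, 0.18 and 0.52. Which part of the transcript each probe set reads was not analysed here, so these values do not check the deletion. Among receptors for factors in the medium and their relatives, 8 of 74 measured growth factor receptor genes were called in 15lox/15lox, 8 in 15lox/1638N and 1 in 15lox/1572T, where 2.50%, 3.50% and 0.115% of all genes were. Tek rose by 2.23 ± 0.27 and 2.41 ± 0.27 (SE) in 15lox/15lox and 15lox/1638N. Il7r, which had the largest SD of these 74 genes in wild type, read 12.50, 11.89 and 12.64 in 15lox/15lox (4.11 ± 0.50, adjusted p = 0.00062) and 9.91, 10.17 and 11.67 in 15lox/1638N (2.35 ± 0.50, adjusted p = 0.0274, highest under the alternatives 0.104).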

How the data were processed

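The data are 15 deposited arrays of mouse LSK cells, 3 of which (wild-type arrays 4 to 6) are described here, with 9 mutant arrays for comparison. The deposited values are taken as log2 probe set summaries, from their range alone. RMA and mm9 appear in the submitters' processing notes, without a role or version. How background was corrected and arrays filtered is not given in the sources used here. All 45101 probe sets were present on each array, and array medians were 6.73 to 6.76 on arrays 4 to 6. On arrays, the number of replicates limits the precision.

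The platform annotation paired 34958 probe sets with 1 symbol, 34754 of which matched a RefSeq gene by Entrez identifier. For each of 18194 genes the probe set of highest mean over wild-type arrays 4 to 6 was used. Some probe sets may bind related transcripts, and of 6532 genes above background with more than 1 probe set, 3222 had every probe set above and 1647 only 1. The cut-off came from single reference probe sets, whereas each gene was read by its highest. Genes with several probe sets could therefore pass more easily. Background classes came from the reference probe sets as described. Contrasts came from limma 3.58.1 under R 4.3.3, with default lmFit and eBayes on 12 arrays (8 residual degrees of freedom). P-values are two-sided and Benjamini-Hochberg adjusted over all genes, with a threshold of 0.05. The fit was checked on simulated data. A gene's highest adjusted p is taken over all alternatives tried.

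The arrays, gene lists and rules were chosen with earlier results of these data known. Any list member could be named. Array values are given for the gate genes and, in each list, for the 3 members of highest mean above background and every mixed member. Named over all genes were the 20 of highest mean, the 15 of largest SD, and per contrast the 6 of largest rise among genes near background and the 6 of largest fall among genes above it, without sex-linked genes and placeholder symbols. Array values of Xist, Axin2, Il7r, Bmp4, Apc and Ccr9 in mutant arrays were added after they were seen.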

Additional observations from a re-analysis of the deposited data

How the results depend on the processing

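The count of genes above background was 7123 with the lowest probe set of each gene and 12224 with the 90th percentile, and each alternative kept it within 1.5 times the value given. Leaving out an array in turn gave 10467 to 10634. Under 12 alternatives to the background rule, 400 of 640 list genes kept their class, among them 251 of 387 above and 149 of 228 near background. With the lowest probe set, 53 cytokine genes and 28 Wnt genes were above background. The share of CpG-rich promoters was 46.9% with an observed over expected threshold of 0.75. The genes called in 15lox/15lox numbered 1197 on all 15 arrays, and 282 to 501 with 1 array left out. Those in 15lox/1638N numbered 2565 on all 15 arrays, 999 with only the pair of groups compared, and 217 to 961 with 1 array left out. Those in 15lox/1572T numbered 202 on all 15 arrays, 1 with the pair of groups, 10 with genes above background on at least 3 arrays only, and 5 to 27 with 1 array left out. The fits on all 15 arrays include the 3 wild-type arrays that look shifted. Of 57, 59 and 11 named or listed calls in 15lox/15lox, 15lox/1638N and 15lox/1572T, 32, 26 and 1 held under every alternative. Apc was 0.77, 0.18 and 0.52 in 15lox/15lox, 15lox/1638N and 15lox/1572T with the probe set of highest mean over 15 arrays, where the main values were negative; the cause was not tested. No paired analysis was possible because wild-type arrays 4 to 6 share no replicate number with the mutant arrays. The call of background has no detection p behind it, so weak signals near the cut-off cannot be told from binding of other transcripts.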
